A study of Danio rerio with 2 samples.

Results

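The genes scarb1, bco1, bscl2l and tmem130, 4 of the 22077 genes in the filtered counts, were chosen as genes linked to carotenoid handling in xanthophores, the yellow pigment cells of zebrafish. They were followed through cells sorted from zebrafish embryos in which melanocytes were being regenerated. No carotenoid was measured, so that the link describes what is known of some of these genes and is not a result. The cells came from 2 single-cell libraries, 1 per condition. All embryos were Tg(crestin:mCherry;mitfa:GFP), a line in which the mitfa promoter drives GFP and the crestin promoter drives mCherry, and all were treated with MoTP, a pro-drug that kills differentiated melanocytes. In the CVT-10216 group, embryos received this ALDH2 inhibitor at 10 µM together with MoTP from 24 hpf (hours post fertilisation), and in the DMSO group they received the solvent with MoTP. MoTP was washed out at 64 hpf, trunks of pooled embryos were dissected at 72 hpf, 8 h later, and cells positive for GFP, mCherry or both were sorted together. With 1 library per condition there was no replicate and no test was made. Each 95% interval below covers counting error only, and variation between embryos of a pool could not be seen.

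Scarb1 is a cell surface receptor for lipoproteins (the scavenger receptor SR-B1), and adult zebrafish need it to take carotenoids into xanthophores. Bco1 is the oxygenase that cleaves beta-carotene into retinal, the step that joins carotenoids to retinoid metabolism. The gene bscl2l is named for its likeness to BSCL2 (seipin), which organises lipid droplets in mammals, the compartment in which neutral lipids and carotenoids dissolve. The yellow of larval xanthophores comes mainly from pteridines, for which gch2 supplies the first enzyme from GTP, and carotenoids become prominent later in life. Sequences of these genes or their proteins were not used here.

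The CVT-10216 library held 6795 cells and 86348575 unique molecular identifiers (UMIs, each counting 1 captured transcript), with a median of 9487 UMIs per cell, and the DMSO library held 4488 cells and 58976443 UMIs, with a median of 8581. Only 4 barcodes occurred in both libraries, and 3 of their cells lay in the gch2 gate described next. A cell was taken into a gate when it had at least 2 UMIs and at least 200 CPM (UMIs of a gene per 1000000 UMIs of the cell) of the gate's gene. The gates were gch2 for xanthophores, dct for melanophores, pnp4a for iridophores, phox2bb for enteric cells and mpeg1.1 for macrophages. Cells that passed several gates, which can be doublets or cells with both programmes, were set apart, and no doublet caller was run. The gch2 gate then held 1517 CVT-10216 cells and 653 DMSO cells, with median depths of 4939 UMIs with CVT-10216 and 4574 UMIs with DMSO. With CVT-10216 the dct gate held 27 cells, the pnp4a gate 1715, the phox2bb gate 927 and the mpeg1.1 gate 108, and with DMSO they held 39, 686, 1325 and 77. The gch2 gate carried the xanthophore markers in both libraries, since 9 of 10 xanthophore markers were at least 2-fold higher there than in each other gate. In at least 25% of its cells, 10 of the 10 were detected with CVT-10216 and 9 with DMSO. The gate's own gene gch2 is among the 10 and in each of these counts, where it passes by the choice of the gate.

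All 4 genes were highest in the gch2 gate, in both libraries, and stayed at 36.8 CPM or below in the 4 other gates. The level in a gate is the CPM of the UMIs summed over its cells. All 4 genes were at least 2-fold higher in the gch2 gate than in each of the 4 other gates in both libraries, a rule that 2.53% of 16852 genes met (427 genes), whereas 0.0237% (4 genes) were lower by the same rule. With earlier results known when the genes were chosen, this count is a description and was not tested.

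For scarb1, the gch2 gate had 93.7 CPM with CVT-10216 (873 UMIs, interval 87.6 to 100.2) and 76.9 CPM with DMSO (276 UMIs, 68.1 to 86.6). In the dct gate it had 36.8 CPM with CVT-10216, but from 5 UMIs (interval 11.95 to 85.9), and 18.5 CPM with DMSO from 3 UMIs (3.81 to 54.0). The gch2 gate stood 2.55-fold above the dct gate with CVT-10216 (log2 interval 0.12 to 2.97) and 4.16-fold with DMSO (0.50 to 4.34). Cells of the mpeg1.1 gate followed with 12.9 CPM (19 UMIs) with CVT-10216 and 7.17 CPM (6 UMIs) with DMSO. The phox2bb gate had 4.80 CPM with CVT-10216 and 3.76 CPM with DMSO, and the pnp4a gate 3.33 CPM with CVT-10216 and 2.95 CPM with DMSO. The order of scarb1 was thus clear between the gch2 gate and the pnp4a, phox2bb and mpeg1.1 gates, while the intervals of the dct and mpeg1.1 gates overlapped. Of the 4 genes scarb1 had the smallest margin over another gate, and that margin rests on few dct cells. Against all dct-positive cells, those of several gates included, the gch2 gate was 8.85-fold higher with CVT-10216 (log2 interval 2.62 to 3.72). With DMSO it was 13.6-fold higher (3.02 to 4.62). Those dct-positive cells had 30 UMIs of scarb1 with CVT-10216 and 15 with DMSO.

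For bco1, the gch2 gate had 351 CPM with CVT-10216 (3267 UMIs) and 255 CPM with DMSO (916 UMIs). The dct gate had 29.4 CPM (4 UMIs) with CVT-10216 and 30.8 CPM (5 UMIs) with DMSO, so that the gch2 gate was 11.9-fold higher with CVT-10216 and 8.29-fold higher with DMSO. The log2 ratio over the dct gate was 3.57 with CVT-10216 and 3.05 with DMSO, and after every cell was thinned to 4000 UMIs, which left 12 CVT-10216 cells and 13 DMSO cells in the dct gate, it was 3.13 with CVT-10216 and 1.77 with DMSO. With CVT-10216 bco1 was at 2.87 CPM in the pnp4a gate, 1.63 CPM in the phox2bb gate and 3.401 CPM (5 UMIs) in the mpeg1.1 gate, and with DMSO at 2.61, 1.13 and 1.19 CPM (1 UMI) in these gates. The pnp4a gate stood above the phox2bb gate beyond counting error in both libraries (2.26 to 3.60 against 1.16 to 2.21 CPM with CVT-10216, and 1.65 to 3.91 against 0.791 to 1.56 CPM with DMSO), while the interval of the mpeg1.1 gate overlapped both.

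For bscl2l, the gch2 gate had 750 CPM with CVT-10216 (6985 UMIs) and 648 CPM with DMSO (2324 UMIs). In the dct gate there was 1 UMI with CVT-10216 (7.36 CPM, a ratio of 102 with a log2 interval of 4.19 to 11.97) and none with DMSO, where the gch2 gate was at least 35.1-fold higher when 3 UMIs are allowed in the dct gate as the limit that a count of 0 leaves. The log2 interval with DMSO began at 4.83. The gch2 gate was 435-fold above the pnp4a gate with CVT-10216 (1.72 CPM there) and 357-fold with DMSO (1.81 CPM). It was 802-fold above the phox2bb gate with CVT-10216 (0.935 CPM there) and 516-fold with DMSO (1.254 CPM). For tmem130, the gch2 gate had 1214 CPM with CVT-10216 (11311 UMIs) and 1093 CPM with DMSO (3921 UMIs). In the dct gate no UMI was counted in 135831 UMIs with CVT-10216 and 162390 UMIs with DMSO, which allows up to 22.1 CPM with CVT-10216 and 18.5 CPM with DMSO (3 UMIs per gate and library). With 3 UMIs allowed, the gch2 gate was at least 55.0-fold higher with CVT-10216 and at least 59.2-fold higher with DMSO. The log2 intervals began lower, at 5.48 with CVT-10216 and 5.59 with DMSO. The pnp4a gate had 3.06 CPM of tmem130 with CVT-10216 and 5.44 CPM with DMSO, and the phox2bb gate 2.36 CPM with CVT-10216 and 1.098 CPM with DMSO. For neither gene did the interval of another gate reach that of the gch2 gate.

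**Figure D1:**
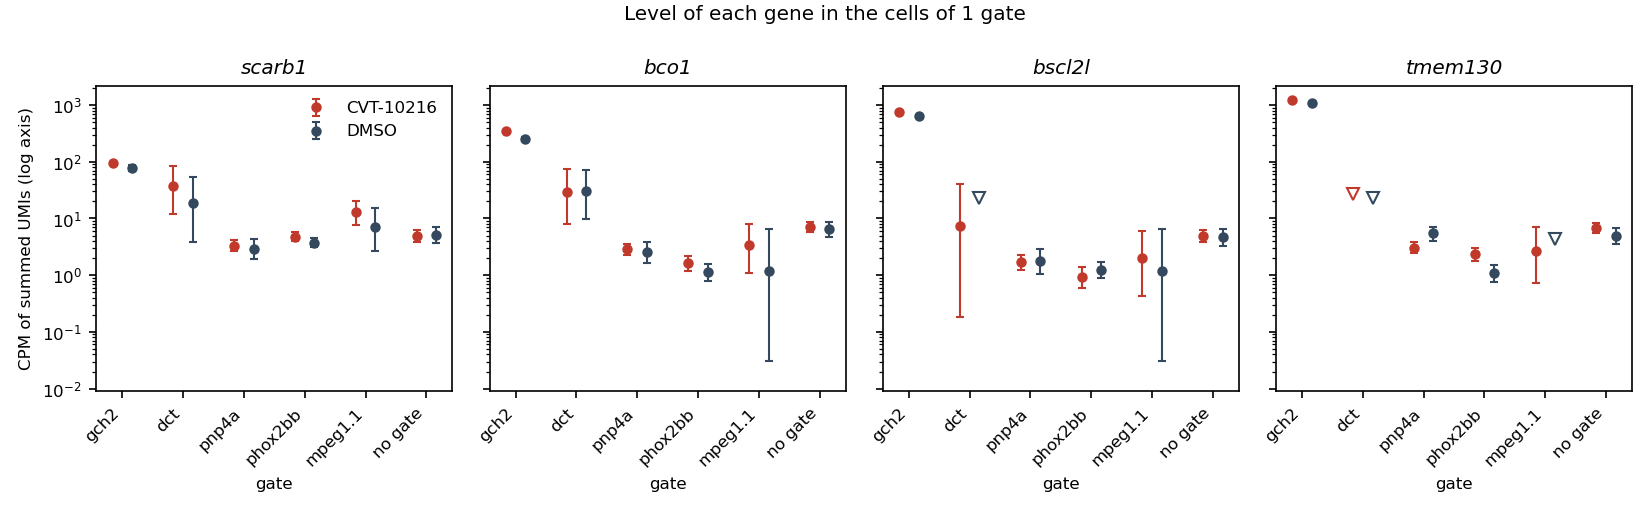
CPM of summed UMIs of each gene (vertical axis, logarithmic) in the cells of each gate and in cells of no gate, with CVT-10216 to the left of DMSO. Points are values with 95% Poisson intervals, and open triangles mark the upper limit where no UMI was counted. All 4 genes are highest in the gch2 gate in both libraries.

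The low levels outside the gch2 gate were also seen in cells of no gate, which with CVT-10216 had 4.97 CPM of scarb1, 7.08 CPM of bco1, 4.90 CPM of bscl2l and 6.86 CPM of tmem130, and with DMSO 5.14, 6.49, 4.73 and 5.004 CPM. The genes were also set against aox5, a xanthophore gene of the pteridine pathway, as UMIs of a gene per UMI of aox5. For scarb1 this ratio was 0.143 in the gch2 gate, 2.36 in the phox2bb gate, 1.34 in the pnp4a gate and 0.985 in cells of no gate with CVT-10216, and 0.111, 2.86, 0.722 and 0.95 with DMSO. Its intervals in these 3 other classes lay above that of the gch2 gate in both libraries. The ratio of tmem130 with CVT-10216 was 1.85 in the gch2 gate (interval 1.79 to 1.91) and 1.16 in the phox2bb gate (0.781 to 1.73), and with DMSO 1.58 in the gch2 gate (1.51 to 1.67) and 0.833 in the phox2bb gate (0.517 to 1.34), with intervals apart in both libraries. For bscl2l the ratio with CVT-10216 was 1.14 in the gch2 gate and 0.46 in the phox2bb gate, with intervals apart, and with DMSO 0.939 and 0.952, with intervals that overlapped. For bco1 it was 0.534 in the gch2 gate and 0.80 in the phox2bb gate with CVT-10216, with intervals that overlapped. With DMSO it was 0.370 and 0.857, with intervals apart. In cells of no gate its intervals, 1.01 to 1.95 with CVT-10216 and 0.772 to 1.87 with DMSO, lay above those of the gch2 gate. In the pnp4a gate its interval lay above with CVT-10216 and overlapped with DMSO. For tmem130 the interval overlapped that of the gch2 gate in cells of no gate with CVT-10216 (0.980 to 1.89). So did its interval in the pnp4a gate with DMSO (0.848 to 2.11). In the pnp4a gate with CVT-10216 and in cells of no gate with DMSO it lay below. The origin of the UMIs outside the gch2 gate, from the cells themselves or from free RNA, was not tested.

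Cells with both gch2 and dct set the genes apart from gch2 itself. Of 276 dct-positive cells with CVT-10216 and 311 with DMSO, 172 with CVT-10216 and 203 with DMSO also passed the gch2 gate and no other. They had 3231 CPM of gch2 with CVT-10216 and 2384 CPM with DMSO. In these cells all 4 genes were far below the gch2 gate. They had 52.2 CPM of tmem130 (81 UMIs) with CVT-10216 and 11.8 CPM (20 UMIs) with DMSO, and the gch2 gate was 23.3-fold higher with CVT-10216 and 92.9-fold higher with DMSO. With CVT-10216 they had 38.6 CPM of bscl2l (60 UMIs), 38.6 CPM of bco1 (60 UMIs) and 7.08 CPM of scarb1 (11 UMIs). With DMSO they had 5.29 CPM of bscl2l (9 UMIs), 23.5 CPM of bco1 (40 UMIs) and 2.35 CPM of scarb1 (4 UMIs).

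A gap was also seen at a matched level of gch2 of 1000 to 4000 CPM, clearest for tmem130 and bscl2l. Cells with 1000 to 4000 CPM of gch2 were 111 in the gch2 gate and 105 with gch2 and dct in the CVT-10216 library, and 58 and 126 in the DMSO library. With CVT-10216, tmem130 was at 504 CPM in those of the gch2 gate, against 12.7 CPM in those with gch2 and dct, and with DMSO at 361 CPM against 7.03 CPM. For bscl2l the values were 357 CPM against 8.09 CPM with CVT-10216 and 241 CPM against 4.02 CPM with DMSO. The gap of bco1 was smaller, with 146 CPM against 28.9 CPM with CVT-10216 and 76.2 CPM against 24.1 CPM with DMSO. For scarb1 the values were 32.2 CPM (20 UMIs) against 6.94 CPM (6 UMIs) with CVT-10216 and 12.04 CPM (3 UMIs) against 2.01 CPM (2 UMIs) with DMSO, too few UMIs to show a difference in the DMSO library. The gap was not alike at other levels of gch2. From 4000 to 16000 CPM, in 28 CVT-10216 cells and 23 DMSO cells with gch2 and dct, all 4 genes were lower with intervals apart. There scarb1 was at 103 CPM against 3.06 CPM (1 UMI) with CVT-10216. With DMSO it was at 101 CPM (interval 77.6 to 128) against no UMI (0 to 16.3). At 16000 CPM or more, 5 CVT-10216 cells with gch2 and dct had 889 CPM of tmem130 against 1625 CPM in the gch2 gate. From 200 to 1000 CPM, bco1 was higher with gch2 and dct, at 24.9 against 20.8 CPM with CVT-10216 and 19.0 against 7.07 CPM with DMSO. The intervals of bco1 overlapped there in both libraries. The cells with gch2 and dct also carried melanophore transcripts, with 9 melanophore markers summing to 23481 CPM with CVT-10216 and 24791 CPM with DMSO.

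Cells with gch2 and pnp4a, 562 with CVT-10216 and 206 with DMSO, had levels much nearer to those of the gch2 gate. With CVT-10216 they had 898 CPM of tmem130, 546 CPM of bscl2l, 242 CPM of bco1 and 68.9 CPM of scarb1, and with DMSO 1114, 617, 285 and 63.2 CPM. Their gch2 was at 14012 CPM with CVT-10216 and 19111 CPM with DMSO, against 18895 CPM with CVT-10216 and 19462 CPM with DMSO in the gch2 gate. Cells with gch2 and phox2bb, 116 with CVT-10216 and 110 with DMSO, had 120.3 CPM of tmem130 with CVT-10216 and 81.9 CPM with DMSO, but their gch2 was also lower, at 1438 CPM with CVT-10216 and 1709 CPM with DMSO.

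**Figure D2:**
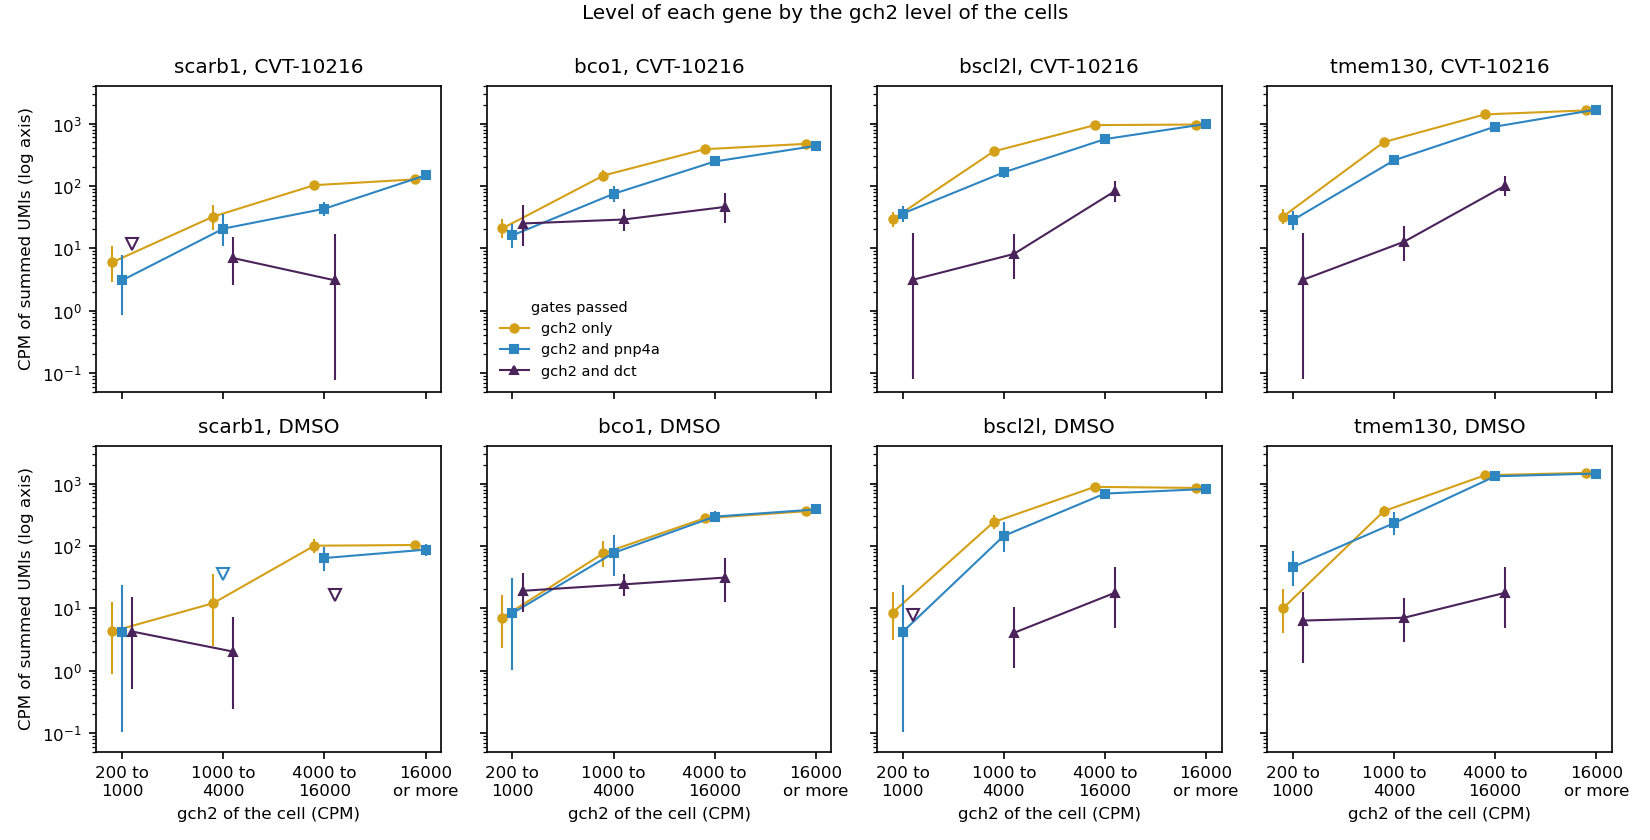
CPM of summed UMIs of each gene (vertical axis, logarithmic) by the gch2 level of the cells (horizontal axis, CPM), for cells of the gch2 gate only, of the gch2 and pnp4a gates and of the gch2 and dct gates, with CVT-10216 in the upper row and DMSO in the lower. Points have 95% Poisson intervals, groups under 10 cells are not drawn, and open triangles mark the upper limit where no UMI was counted. In the gch2 gate each gene rises up to the band of 4000 to 16000 CPM of gch2. On this axis the step at 1000 CPM is larger than that at 4000 CPM, except for scarb1 with DMSO. From 1000 to 16000 CPM the cells with gch2 and dct lie below those of the gch2 gate.

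Within the gch2 gate all 4 genes were lowest in the cells with least gch2. From each band of gch2 to the next, the largest step of each gene as a difference in CPM lay, in both libraries, between the band of 1000 to 4000 CPM, whose values are given above, and that of 4000 to 16000 CPM. As a ratio, the step at 1000 CPM was larger for tmem130, bscl2l and bco1 in both libraries, and for scarb1 with CVT-10216 only. With 200 to 1000 CPM of gch2, where 241 CVT-10216 cells and 111 DMSO cells lay, tmem130 was at 32.1 CPM with CVT-10216 and 9.90 CPM with DMSO. From 4000 to 16000 CPM of gch2 it was at 1402 CPM with CVT-10216 and 1359 CPM with DMSO, and at 16000 CPM or more at 1625 CPM with CVT-10216 and 1484 CPM with DMSO. In these 3 bands bscl2l was at 29.1, 943 and 964 CPM with CVT-10216 and at 8.48, 884 and 849.7 CPM with DMSO. It did not differ beyond its intervals between the upper bands. For bco1 the values were 20.8, 387 and 472 CPM with CVT-10216 and 7.07, 277 and 359 CPM with DMSO, and for scarb1 they were 5.94, 103 and 127 CPM with CVT-10216 and 4.24, 101 and 103 CPM with DMSO. In the lowest band the DMSO intervals overlapped those of cells of no gate for each gene, while with CVT-10216 those of bco1, bscl2l and tmem130 lay above them. The limit of the gate fell among many cells, since 385 gated cells had between 200 and 400 CPM of gch2, while 500 cells lay just outside with 100 to 200 CPM.

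The fraction of gch2-gated cells with a UMI of a gene was compared at 1 depth, by drawing 4000 UMIs from every cell that had as many, and this kept 971 CVT-10216 cells and 393 DMSO cells of the gate. With CVT-10216 a UMI of tmem130 was found in 80.4% of these cells, of bscl2l in 72.3%, of bco1 in 62.1% and of scarb1 in 25.03% (interval 22.3 to 27.9). With DMSO the shares were 76.3%, 64.9%, 52.9% and 21.4% (17.4 to 25.8). In the phox2bb gate at the same depth, taken for comparison, they were 1.78%, 0.556%, 0.556% and 1.78% with CVT-10216 and 0.877%, 0.478%, 0.797% and 0.957% with DMSO, in the same order of genes. All 4 shares in the gch2 gate were far above those of the phox2bb gate in both libraries. In the dct gate, with few cells of this depth, bco1 was found in 2 of 12 CVT-10216 cells (16.7%, interval 2.09 to 48.4) and in 4 of 13 DMSO cells (30.8%, 9.09 to 61.4), and with DMSO this interval overlapped that of the gch2 gate (47.9 to 58.0). Without thinning the gch2-gated cells gave 79.8% for tmem130, 72.8% for bscl2l, 61.2% for bco1 and 30.3% for scarb1 with CVT-10216, and 75.5%, 67.2%, 53.6% and 24.2% with DMSO. The median depth of the phox2bb gate was 18939 UMIs with CVT-10216 and 16543 UMIs with DMSO, above that of the gch2 gate.

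Counts spread more widely among the gch2-gated cells than Poisson counts of the same mean. The variance over the mean was 3.32 with CVT-10216 and 3.43 with DMSO for tmem130, where Poisson counts give a variance equal to the mean. For bscl2l, bco1 and scarb1 it was 3.33, 2.02 and 1.84 with CVT-10216 and 3.15, 1.77 and 1.57 with DMSO. The 10% of cells with the most UMIs of scarb1 (97 with CVT-10216 and 39 with DMSO) held 61.1% of its UMIs with CVT-10216 and 63.4% with DMSO. For tmem130 this share was 25.6% with CVT-10216 and 27.0% with DMSO. Poisson counts of a low mean also give a large share, and scarb1 had a lower mean than tmem130 in both libraries. The share that Poisson counts would give was not calculated, so these shares alone do not show how far scarb1 departs from such counts. A UMI of scarb1 was found in 25.03% of cells with CVT-10216, where Poisson counts of its mean give 32.0%. With DMSO it was found in 21.4%, where they give 26.9%. It was thus found in fewer cells than its mean implies, and so was each of the other genes. Cells at 0 were fewer where gch2 was high, as tmem130 was found in 98.0% of cells with at least 4000 CPM of gch2 with CVT-10216 and 97.0% with DMSO. Its variance over the mean was 2.10 with CVT-10216 and 2.15 with DMSO in them. All 4 genes were found together in 22.0% of those cells with CVT-10216 and 18.1% with DMSO, and none of the 4 in 0.526% with CVT-10216 and 0.671% with DMSO.

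**Figure D3:**
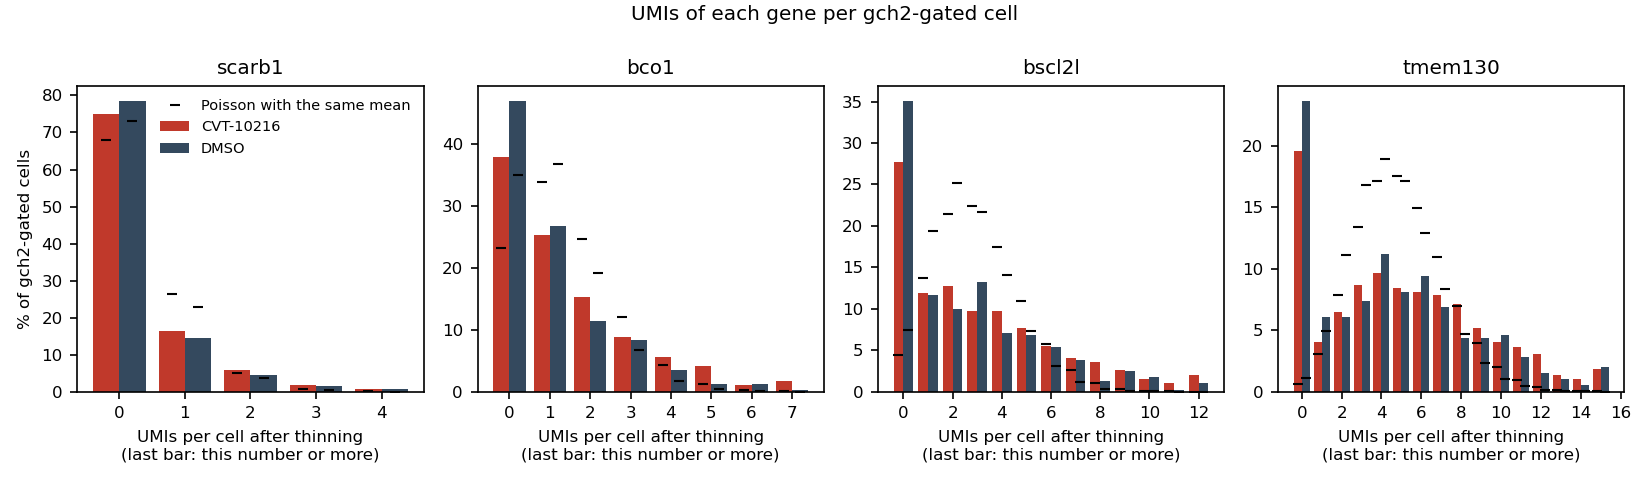
Percentage of gch2-gated cells (vertical axis) by UMIs of each gene per cell after thinning to 4000 UMIs (horizontal axis, last bar this number or more), with CVT-10216 to the left of DMSO. Bars are the measured percentages and dashes those of Poisson counts of the same mean. More cells than the dashes have 0 UMIs for each gene. With CVT-10216, 61.1% of scarb1 UMIs fell in 10% of the cells, a share that a low mean also raises in Poisson counts.

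Pairs of the genes differed in how closely their counts went together across cells. In cells with at least 4000 CPM of gch2 (760 thinned cells with CVT-10216 and 298 with DMSO, which share a library and a depth), Pearson's r across cells was 0.36 with CVT-10216 and 0.46 with DMSO for bscl2l with tmem130, and 0.22 with CVT-10216 and 0.24 with DMSO for scarb1 with bscl2l. The xanthophore gene slc22a7a had an r with bscl2l of 0.49 in both libraries, and with tmem130 of 0.45 in the CVT-10216 library and 0.55 in the DMSO library. Other xanthophore genes had lower values. With bscl2l the r was 0.21 for aox5 and −0.03 for gch2 in the CVT-10216 library, and 0.09 and −0.04 in the DMSO library. With tmem130 it was 0.11 for both in the CVT-10216 library, and 0.11 for aox5 and 0.01 for gch2 in the DMSO library. The r of bco1 with bscl2l, tmem130, scarb1 and gch2 was 0.03, 0.10, 0.01 and 0.14 in the CVT-10216 library and −0.04, 0.04, 0.03 and 0.15 in the DMSO library. In all thinned cells of the gch2 gate r was 0.54 with CVT-10216 and 0.60 with DMSO for bscl2l with tmem130. For bco1 with tmem130 it was 0.31 with CVT-10216 and 0.27 with DMSO there. Such values in sparse counts describe these cells and were not tested. Counting error lowers r where counts are low, so a low r cannot show that cells rich in one gene lack another. In cells with at least 4000 CPM of gch2 the mean of bco1 after thinning was 1.81 UMIs with CVT-10216 and 1.36 UMIs with DMSO. That of scarb1 was lower, at 0.479 and 0.409 UMIs, while the r of scarb1 with bscl2l was higher than that of bco1. The cause was not tested.

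The genes also differed in how they varied with transcripts of 18 cycling genes. Among thinned cells of at least 4000 CPM of gch2, 279 CVT-10216 cells and 101 DMSO cells had at least 3 UMIs of these genes, called cycling here, and 291 CVT-10216 cells and 120 DMSO cells had none. In the CVT-10216 library, bscl2l was at 859 CPM in cycling cells and 1059 CPM in cells with none, tmem130 at 1401 and 1733 CPM, scarb1 at 112 and 131 CPM, and bco1 at 508 and 393 CPM. In the DMSO library, bscl2l was at 599 CPM in cycling cells and 981 CPM in cells with none, tmem130 at 1220 and 1658 CPM, scarb1 at 79.2 and 138 CPM and bco1 at 349 and 338 CPM. The intervals of bco1 overlapped in the DMSO library (294 to 412 and 288 to 394 CPM) and were apart in the CVT-10216 library (467 to 552 and 357 to 430 CPM). Those of scarb1 overlapped in both libraries, while those of bscl2l and tmem130 were apart in both. The cells were split on genes other than these 4, and gch2 was at 21980 CPM in cycling cells against 29435 CPM in cells with none with CVT-10216, and at 23446 CPM against 30892 CPM with DMSO. The same thinned cells were also split by mitfa, whose promoter drives the GFP. With a UMI of mitfa, tmem130 was at 1671 CPM against 1466 CPM without one in the CVT-10216 library, and at 1589 CPM against 1299.6 CPM in the DMSO library, with intervals apart in both. For bscl2l the values were 1058 CPM against 809 CPM with CVT-10216, with intervals apart, and 874 CPM against 784 CPM with DMSO, where they overlapped. For bco1 and scarb1 the intervals overlapped in both libraries.

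The comparison of conditions asked whether the inhibitor went with a change of these genes in the gch2-gated cells. Each of the 4 was somewhat higher with CVT-10216 in the gch2 gate, and bco1 was the one with the largest ratio. The log2 ratio of CVT-10216 over DMSO was 0.46 for bco1 (interval 0.35 to 0.57), 0.29 for scarb1 (0.09 to 0.49), 0.21 for bscl2l (0.14 to 0.28) and 0.15 for tmem130 (0.10 to 0.21). None passed 2-fold, which 7.99% of 14933 genes did upwards and 2.46% downwards. At least 1.25-fold with an interval apart from 1 was reached by bco1, at 1.37-fold, and by none of the other 3, and by 8.69% of 14933 genes upwards and 3.49% downwards. The median of the 4 genes was 0.25, against 0.06 for all genes. Medians of the gene lists described below ran from −0.15 (xanthophore identity) to 0.49 (lipoprotein). Of 1424 genes with at least 1000 summed UMIs in the gate, 40 others had a ratio at or above that of bco1. The direction and size were not the same in all cells with gch2. In those with gch2 and pnp4a the log2 ratio was −0.24 for bco1 (interval −0.39 to −0.08), −0.18 for bscl2l (−0.28 to −0.07), −0.31 for tmem130 (−0.39 to −0.23) and 0.13 for scarb1 (−0.20 to 0.46), with gch2 itself at −0.45. In those with gch2 and dct it was 2.87 for bscl2l (1.85 to 4.06), 2.15 for tmem130 (1.43 to 2.93), 0.72 for bco1 (0.11 to 1.33) and 1.59 for scarb1 (−0.16 to 3.70), from 4 to 81 UMIs of each gene in a library. Of the CVT-10216 UMIs of these cells, 36 of 81 of tmem130 and 25 of 60 of bscl2l came from 5 cells. These cells had at least 16000 CPM of gch2, a band with 1 DMSO cell. From 1000 to 4000 CPM of gch2 the ratios were 1.01 for bscl2l (−0.97 to 3.23) and 0.85 for tmem130 (−0.64 to 2.46). From 4000 to 16000 CPM they were 2.22 for bscl2l (0.70 to 4.20) and 2.51 for tmem130 (1.02 to 4.47). In that band each of these genes had 4 UMIs with DMSO. With gch2 and phox2bb the log2 ratio was 0.55 for tmem130 (0.23 to 0.89), and the intervals of the 3 other genes included 0. With gch2 and mpeg1.1, in 14 CVT-10216 cells and 8 DMSO cells, it was −3.23 for bscl2l (−4.99 to −1.79, from 5 UMIs with CVT-10216 and 22 UMIs with DMSO), and the intervals of the 3 others included 0. The differences between the classes were not tested. With 1 library per condition these are differences between 2 libraries. Summed over all cells, tmem130 was at 198 CPM with CVT-10216 and 101 CPM with DMSO, but gch2-gated cells made up 22.3% of cells with CVT-10216 and 14.5% with DMSO, and in such a sum more cells of a type and more transcript per cell cannot be told apart.

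The ratio of bco1 was above 0 in each band of gch2, with 1.56 from 200 to 1000 CPM (interval 0.20 to 3.27), 0.94 from 1000 to 4000 (0.22 to 1.74), 0.48 from 4000 to 16000 (0.25 to 0.73) and 0.40 at 16000 or more (0.27 to 0.52). For tmem130 the ratios were 1.70, 0.48, 0.04 and 0.13 in these bands, and for bscl2l 1.78, 0.57, 0.09 and 0.18. For scarb1 they were 0.49, 1.42, 0.03 and 0.30, with 3 UMIs with DMSO in each of the 2 lower bands. In the band from 4000 to 16000 CPM the intervals of tmem130 (−0.06 to 0.16), bscl2l (−0.04 to 0.23) and scarb1 (−0.38 to 0.46) included 0. At 16000 CPM or more those of tmem130 (0.07 to 0.19), bscl2l (0.10 to 0.26) and scarb1 (0.07 to 0.54) lay above 0. Beside this, markers of other tissues also differed between the libraries within the gch2 gate: 4 epithelial markers summed to 829 CPM with CVT-10216 and 310 CPM with DMSO, 4 erythroid markers to 433 CPM with CVT-10216 and 44.0 CPM with DMSO, 4 muscle markers to 521 CPM with CVT-10216 and 126 CPM with DMSO, and 4 mesenchymal markers to 774 CPM with CVT-10216 and 371 CPM with DMSO. Other lists were lower with CVT-10216, with 7 enteric markers at 50.5 CPM with CVT-10216 and 95.6 CPM with DMSO, 9 melanophore markers at 318 CPM with CVT-10216 and 444 CPM with DMSO, 9 iridophore markers at 769.9 CPM with CVT-10216 and 865 CPM with DMSO, and 8 macrophage markers at 113 CPM with CVT-10216 and 139.6 CPM with DMSO. Glial, neuronal and endothelial markers, 4 of each, were higher with CVT-10216, at 599, 549 and 10.2 CPM, against 448, 507 and 3.62 CPM with DMSO. In these lists 1 erythroid, 1 melanophore and 3 macrophage markers were at 0 with DMSO and none with CVT-10216. Of the defining markers of the first 4 lists, epcam, hbae1.1, actc1b and twist1a were at 41.2, 6.44, 290.4 and 20.3 CPM with CVT-10216 and at 28.7, 1.95, 54.6 and 12.5 CPM with DMSO. Their part in the result was not tested. In cells of no gate with epcam, an epithelial adhesion gene, bco1 was at 5.61 CPM (17 UMIs) with CVT-10216 and 3.05 CPM (5 UMIs) with DMSO, and in those with col1a1a, a collagen gene, at 11.2 CPM (45 UMIs) with CVT-10216 and 9.54 CPM (20 UMIs) with DMSO, far below its level in the gch2 gate.

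**Figure D4:**
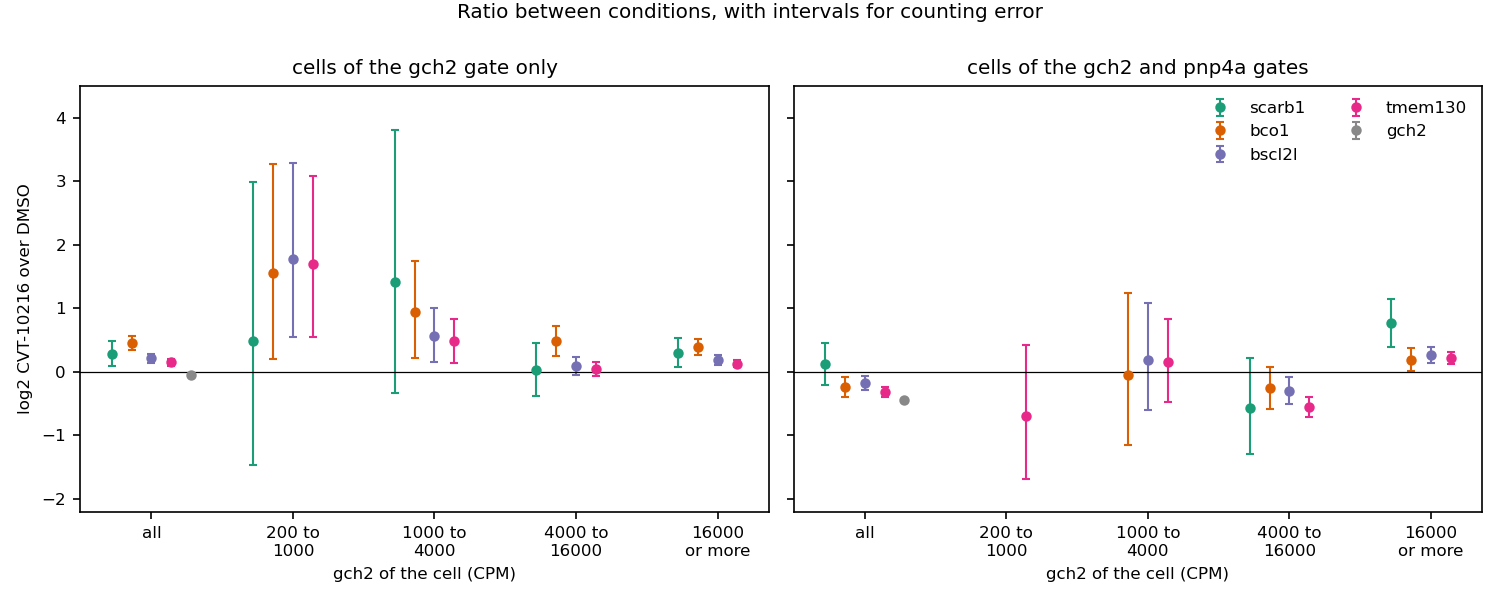
Log2 ratio of CVT-10216 over DMSO (vertical axis) for each gene, in all cells of a class and by the gch2 level of the cells (horizontal axis, CPM), for the gch2 gate (left) and for cells with gch2 and pnp4a (right), with gch2 itself over all cells. Bars are 95% intervals for counting error, and bands with fewer than 3 UMIs in a library are not drawn. In the gch2 gate bco1 lies above 0 in each band, from 1.56 in the lowest to 0.40 in the highest.

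Genes that share a pathway with the 4 were counted in lists. Of 9 tested carotenoid relatives (14 of 18 symbols were in the counts), none was at least 2-fold higher in the gch2 gate than in each other gate in both libraries. The relative bco1l, which the RefSeq annotation places next to bco1, had 2 UMIs with CVT-10216 and 0 with DMSO in the gch2 gate, and whether reads of the 2 related genes were told apart in counting was not tested. The nearest was stard3, a lutein and cholesterol binding protein in mammals, at 22.0 CPM with CVT-10216 and 23.1 CPM with DMSO, against 29.3 CPM with CVT-10216 and 34.6 CPM with DMSO in the mpeg1.1 gate. Of 38 retinoid genes 1 was higher (rbp7b), of 16 lipid droplet genes 2 (plin6 and dgat1a), of 27 lipoprotein genes 2 (apoea and apoa1a), of 17 pteridine genes 4 and of 13 xanthophore identity genes 5 (pax7a, pax7b, slc2a11b, slc2a15b and slc22a7a). Of 7 thyroid hormone genes and 18 cycling genes none was. Of these, rbp7b, dgat1a, apoea, apoa1a and pax7a are named after their values were seen, and the first 4 of them were at 13.4 CPM or below in the gch2 gate. Across all genes the share was 2.53%.

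Among lipid droplet genes, plin6, a perilipin of fish, was at 10.2 CPM with CVT-10216 (95 UMIs) and 22.0 CPM with DMSO (79 UMIs) in the gch2 gate, with 0.0383 CPM with CVT-10216 and 0.113 CPM with DMSO in the pnp4a gate and no UMI in the dct gate. Its log2 ratio of CVT-10216 over DMSO was −1.11 (interval −1.56 to −0.66), so that it was lower in the library in which the 4 genes were higher. The pteridine genes aox5, xdh, sprb and pts were the 4 called, at 657, 147, 35.8 and 350 CPM with CVT-10216 and 690, 160, 39.9 and 411 CPM with DMSO in the gch2 gate. Each of the 4 pteridine genes had a lower value with CVT-10216, but the intervals of xdh (−0.26 to 0.02) and sprb (−0.44 to 0.14) included 0, those of aox5 (−0.14 to −0.0034) and pts (−0.32 to −0.14) did not, and gch2 was at a log2 ratio of −0.04. Of the retinoid genes, the retinoid binding protein crabp2b was at 235.5 CPM with CVT-10216 and 300.4 CPM with DMSO in the gch2 gate, and the retinol dehydrogenase rdh8a at 133 CPM with CVT-10216 and 161 CPM with DMSO. Both were also found in the dct gate, crabp2b at 213.5 CPM with CVT-10216 and 332.5 CPM with DMSO and rdh8a at 81.0 CPM with CVT-10216 and 104.7 CPM with DMSO. Between conditions, 10 of 27 lipoprotein genes, 8 of 35 retinoid genes, and 1 each of 9 carotenoid relatives, 14 lipid droplet genes, 7 thyroid hormone genes and 18 cycling genes were at least 2-fold higher with CVT-10216, against 7.99% of all genes. Lower by as much were 1 each of the carotenoid relatives, retinoid and lipid droplet genes, and of the 17 pteridine and 13 xanthophore identity genes 0 passed in either direction. Many of the higher genes had few UMIs. With at least 50 summed UMIs, 5 of 18 lipoprotein, 1 of 23 retinoid, 1 of 11 lipid droplet and 1 of 5 thyroid hormone genes were higher. Of 4 carotenoid relatives and 17 cycling genes 0 were, against 355 of 10419 among all genes. By the rule of 1.25-fold with an interval apart from 1, 8.69% of all genes were higher and 3.49% lower. By it 7 of 27 lipoprotein, 8 of 35 retinoid, 2 of 14 lipid droplet, 3 of 7 thyroid hormone and 6 of 18 cycling genes were higher. Lower were 2 retinoid genes and 1 each of the lipid droplet, pteridine and xanthophore identity genes. The apolipoprotein gene apoa2 was at 24.5 CPM with CVT-10216 and 2.23 CPM with DMSO in the gch2 gate and at 52.4 CPM with CVT-10216 and 0.680 CPM with DMSO in the pnp4a gate, higher with CVT-10216 in both.

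The genes most alike to each of the 4 across the 5 gates and 2 libraries were sought among 8450 genes by Pearson's r of log2(CPM + 1) over these 10 values. For bscl2l they were aox5 (0.99), cax1 (0.99), pax7b (0.99), iah1 (0.98) and sprb (0.98). For tmem130 they were tnfaip8l3 (0.99), zgc:153031 (0.99), si:ch73-366l1.5 (0.99), cx30.3 (0.99) and gdpd5a (0.99). For bco1 they were si:dkey-251i10.2 (0.99), slc2a11b (0.99), mc5ra (0.99), add3b (0.98) and vps26a (0.98), and for scarb1 vps9d1 (0.99), nrbp2a (0.98), prdx1 (0.96), eif4ebp3 (0.95) and rtn3 (0.95). Among the 4 themselves the r of bscl2l with tmem130 was 0.95, of scarb1 with bco1 0.94 and of scarb1 with tmem130 0.67. The values share libraries and gates and are a description. In the dct gate they rest on at most 5 UMIs of each of the 4 genes in a library, so r depends in part on few counts.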

How the data were processed

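The authors aligned the reads to GRCz11 with Ensembl 94 annotation and entries for GFP and mCherry, aggregated both libraries with Cell Ranger (the processing notes name versions 2.1.1 and 3.1.0), and deposited UMI counts, not normalised, for all barcodes and for those their quality filter kept. Whether aggregation equalised depth is not stated in the methods. The last part of the barcode gave the library, since 6795 and 4488 cells are the CVT-10216 and DMSO numbers in the methods. The calculations used numpy 2.4.6, pandas 2.3.3 and scipy 1.17.1 (Python 3.11.15), and the plots matplotlib 3.10.9. Intervals are exact Poisson for CPM, exact conditional for ratios and Clopper-Pearson for shares, at 95%. The interval calculation was tested on simulated Poisson counts. Where a count was 0, 3 counts were taken as the limit in the text, while the figures mark the upper end of the 95% interval. Genes were compared between gates with at least 10 UMIs over the 5 gates in each library, and between conditions with at least 10 UMIs in the gch2 gate. The 4 genes, gates, lists and named genes were chosen with earlier results of these data known, and the 4000 CPM limit of gch2 after seeing the data. Named genes are the 4, at most 4 and 2 per list with the largest and smallest ratio over the highest other gate (at least 20 CPM in a gate), and the 5 of highest r for each of the 4; others are marked where they occur. TMM factors came from edgeR 4.0.16 in R 4.3.3. Cells are not replicates, so no p-value is given.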

Additional observations from a re-analysis of the deposited data

Results flagged for a closer look

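The ratio of CVT-10216 over DMSO had the opposite sign in some classes of cells that carry pnp4a. In cells with gch2 and pnp4a the log2 ratio was −0.24 for bco1, −0.18 for bscl2l and −0.31 for tmem130, with intervals below 0, whereas the gch2 gate had intervals above 0. In the pnp4a gate tmem130 had a ratio of −0.83, from 3.06 CPM with CVT-10216 (80 UMIs) and 5.44 CPM with DMSO (48 UMIs). The difference between classes was not tested. In cells with gch2 and pnp4a gch2 itself was at 14012 CPM with CVT-10216 and 19111 CPM with DMSO (log2 −0.45), and the ratios differed by band of gch2. From 4000 to 16000 CPM of gch2 they were −0.26 for bco1 (interval −0.58 to 0.08), −0.29 for bscl2l (−0.51 to −0.08) and −0.55 for tmem130 (−0.71 to −0.39). At 16000 CPM or more they were 0.19 for bco1 (0.0088 to 0.38), 0.27 for bscl2l (0.14 to 0.40) and 0.21 for tmem130 (0.12 to 0.31).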

How the results depend on the processing

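No paired analysis was possible because there is 1 library per condition. In every alternative that was run all 4 genes were highest in the gch2 gate in both libraries, and 320 of 320 single ratios over another gate stayed above 0 on the log2 scale, with a lowest value of 0.21. That value was of scarb1, whose lowest ratio as reported was 1.35 over the dct gate with CVT-10216 (interval 0.12 to 2.97). The 2-fold margin of scarb1 thus did not hold under every alternative. The lowest ratio of bco1 over the other gates was 1.77 with cells thinned to 4000 UMIs, against 3.05. For bscl2l, with 5.13 as reported, it was 3.92 with a gate of at least 1 UMI, 2.17 with cells of several gates kept and 3.49 with thinned cells, and for tmem130, with 5.78, it was 2.07 with cells of several gates kept and 4.29 with thinned cells. With thinned cells no UMI of bscl2l or tmem130 was left in the dct gate, so that these values are lower limits. For bco1 the value was that over the dct gate with DMSO, and the cause was not tested. TMM moved the median of all genes by 0.41 to 0.55 against the dct gate and by −0.43 to −0.31 against the pnp4a gate, by −0.38 and −0.23 against the mpeg1.1 gate and by −0.08 between conditions.

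Between conditions each of the 4 genes kept a ratio above 0 under every alternative. The ratio of scarb1 was 0.55 with cells of several gates kept. That of bco1 was 0.61 with a gate of at least 1 UMI, 0.61 with cells of several gates kept and 0.62 as UMIs per cell without scaling, which moves all genes by 0.16. For bscl2l it was 0.48 with cells of several gates kept, 0.37 as UMIs per cell, 0.13 with TMM and 0.12 with cells weighted equally, and for tmem130 0.22 with a gate of at least 1 UMI, 0.42 with cells of several gates kept, 0.31 as UMIs per cell and 0.076 with TMM. The cause of these moves was not tested. List genes at least 2-fold higher with CVT-10216 numbered 22, and 8 when at least 50 summed UMIs were asked for, and those lower numbered 3, with 17 without a minimum and 1 with at least 50. Over all genes, 427 of 16852 were higher in the gch2 gate, with 766 of 22072 without a minimum and 231 of 13151 with at least 50 UMIs. Those 2-fold higher with CVT-10216 numbered 1193 of 14933, 2119 of 22077 and 355 of 10419 under these settings, and those 2-fold lower 367, 3567 and 53. The number of genes tested thus changed with the minimum, in the lists too, as with 35 retinoid genes and 23 with at least 50 UMIs. The change in the list counts is therefore not a result about the lists. The limit of 4000 CPM for gch2, chosen after seeing the data, changed no direction.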

Other observations

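Cells that the quality filter left out, 1171 of CVT-10216 and 906 of DMSO, had a median of 839 UMIs with CVT-10216 and 851 UMIs with DMSO. In them tmem130 was at 787 CPM with CVT-10216 and 754 CPM with DMSO, bscl2l at 374 CPM with CVT-10216 and 363 CPM with DMSO, bco1 at 162 CPM with CVT-10216 and 153 CPM with DMSO, and scarb1 at 47.1 CPM with CVT-10216 and 43.6 CPM with DMSO. Over all kept cells tmem130 was at 198 CPM with CVT-10216 and 101 CPM with DMSO. The intervals of each gene overlapped between the libraries in the cells left out.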
